A study of Mus musculus with 3 samples.

Results

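Jak2, Cd274 and Pdcd1lg2 are neighbours on mouse chromosome 19, and the chromatin of the stretch that holds them was examined in mouse long-term HSCs (LT-HSCs). The 3 genes were taken as listed, out of 21755 protein-coding genes measured, together with 50 kb on either side (mm10, chr19:29201828-29521161). The stretch was read as 640 windows of 500 bp, out of 5451055 in the genome. LT-HSCs are the stem cells of the blood that can rebuild it for a lifetime. These came from marrow of wild-type females at 24 months of age and had been enriched for c-Kit, stained with antibodies and sorted by flow cytometry. The study sought surface markers that separate HSC subtypes, and CD274 was among its markers. DOGMA-seq, which measures open chromatin by ATAC, transcripts and surface antibody tags jointly per cell, gave 3 libraries from 1 pool of cells, with no other age, genotype or treatment among the samples. The labels do not give the number of mice pooled, so no spread between animals could be measured and groups of cells were compared without a test.

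Cd274 encodes PD-L1, and Pdcd1lg2 encodes PD-L2. Both are surface ligands of the inhibitory receptor PD-1 on T cells. Jak2 encodes a kinase that carries signals from cytokine receptors such as the thrombopoietin receptor to STAT factors, and interferon signalling through JAK and STAT proteins is known to induce PD-L1. Blood stem cells depend on thrombopoietin signalling for their maintenance.

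Of 3724 cells in the antibody table, 3629 held at least 10 antibody tags and were kept. They carried 38554133 nuclear fragments, with a median of 10300 per cell. The CD274 antibody gave 67.5% of their tags, and every kept cell held at least 2 CD274 tags. Its oligonucleotide barcode, shown because both gates rest on its count, was listed in the panel of 12 antibodies as follows.
CD274 antibody barcode: tcgattccaccaact

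Cells with 27 or more CD274 tags are called CD274-high (937 cells) and cells with 12 or fewer CD274-low (877 cells). Median depth was 10311 fragments in CD274-high and 10486 in CD274-low cells. The deepest cells were more often CD274-high, since leaving out the deepest 5% of cells left 847 CD274-high and 842 CD274-low cells. The gates also differed in the tags of the other 11 antibodies, with medians of 11 and 8. No doublet caller was applied. Cells with unusually many places covered by 3 or more fragments, more than 2 chromosome copies can give, made up 13.7% of CD274-high and 6.27% of CD274-low cells, so the results were also computed without them. The number of such places was not adjusted for the depth of the cell, and the part of depth in these shares was not tested. All intervals given here are exact 95% intervals for counting error only, which do not cover differences between animals or the spread between cells.

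The labelled cell type was checked on marker genes. Over 2 kb around the annotated start, the 10 HSC marker genes had a median of 413.5 fragments, against 394 for all protein-coding genes. The median was 40 for 8 macrophage and dendritic markers, 46 for 5 neutrophil markers, 48 for 5 B cell markers, 21 for 5 T cell markers and 294 for 4 erythroid markers. The HSC median was thus near that of all genes, and single HSC genes ran from 19 fragments at the annotated start of Mecom to 1681 at Kit, the stem cell factor receptor. Some markers of other types were open too, such as Ebf1 of B cells (491) and Mertk of macrophages (894), so these starts do not by themselves set HSCs apart.

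The promoters of the 3 genes differed in sequence, and they are shown because the 3 starts also differed in openness. The sequences are from RefSeq (GRCm38.p6), on the plus strand, and end at the base before the RefSeq start. For Cd274 the stretch was shortened to leave out an annotated untranslated exon of Plgrkt. Capitals mark matches, on either strand, to 7 short motifs: GAAANNGAA of IRF factors, TTCNNNGAA of STAT factors, CCGGAAGT of ETS factors, AGATAA of GATA factors, TGTGGT of RUNX factors, TGAGTCA of AP-1 and GGGANTTTC of NF-kB. The windows are chr19:29251553-29251802 for Jak2, chr19:29367309-29367437 for Cd274 and chr19:29410669-29410918 for Pdcd1lg2.
Jak2 promoter: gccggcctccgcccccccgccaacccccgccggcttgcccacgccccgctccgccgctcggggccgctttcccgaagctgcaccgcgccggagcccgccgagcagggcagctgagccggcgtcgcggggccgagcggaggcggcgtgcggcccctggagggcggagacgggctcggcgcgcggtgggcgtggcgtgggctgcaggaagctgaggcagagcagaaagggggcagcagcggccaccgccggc
Cd274 promoter: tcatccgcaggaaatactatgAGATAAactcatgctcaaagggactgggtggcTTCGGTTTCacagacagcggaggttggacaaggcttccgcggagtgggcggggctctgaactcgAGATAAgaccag
Pdcd1lg2 promoter: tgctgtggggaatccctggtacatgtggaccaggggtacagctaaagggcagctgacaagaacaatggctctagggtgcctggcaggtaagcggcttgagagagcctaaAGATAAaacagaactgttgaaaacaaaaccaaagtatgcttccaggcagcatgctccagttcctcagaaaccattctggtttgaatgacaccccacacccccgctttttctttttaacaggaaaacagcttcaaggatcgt

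Jak2 had a promoter rich in G and C (81% over the 300 bp of the RefSeq window, with 44 CG dinucleotides), and none of the 7 motifs matched there. The Cd274 window held 52.7% G and C with 15 CG dinucleotides, and the Pdcd1lg2 window 46% with 3. The medians over all 32851 promoters were 52.7% and 7. The Cd274 window held 1 IRF match (TTCGGTTTC, on the minus strand) and 2 GATA matches. An IRF match was present in 8.56% of all promoters of that length and a GATA match in 11.2%. The Pdcd1lg2 window held 1 GATA and 1 RUNX match, the latter beyond the part shown, and a RUNX match was present in 16.8% of promoters. The remaining motifs matched 8.30% (STAT), 3.89% (ETS), 5.20% (AP-1) and 1.11% (NF-kB) of promoters and none of the 3 windows.

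Of the 3 starts, those of Jak2 and Cd274 were open and that of Pdcd1lg2 was closed. Levels were compared as fragments over the same 2 kb around each GENCODE start in all kept cells. Jak2 held 2191 fragments (interval 2100 to 2285), which placed it at percentile 93.4 of protein-coding genes. Cd274 held 596 (549 to 646), at percentile 58.0, and Pdcd1lg2 held 30 (20.2 to 42.8), at percentile 28.4. A fragment at the start was present in 41.9% of cells for Jak2, in 14.5% for Cd274 and in 0.772% for Pdcd1lg2. The order Jak2, Cd274, Pdcd1lg2 was clear of counting error, since no interval overlapped the next.

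**Figure D1:**
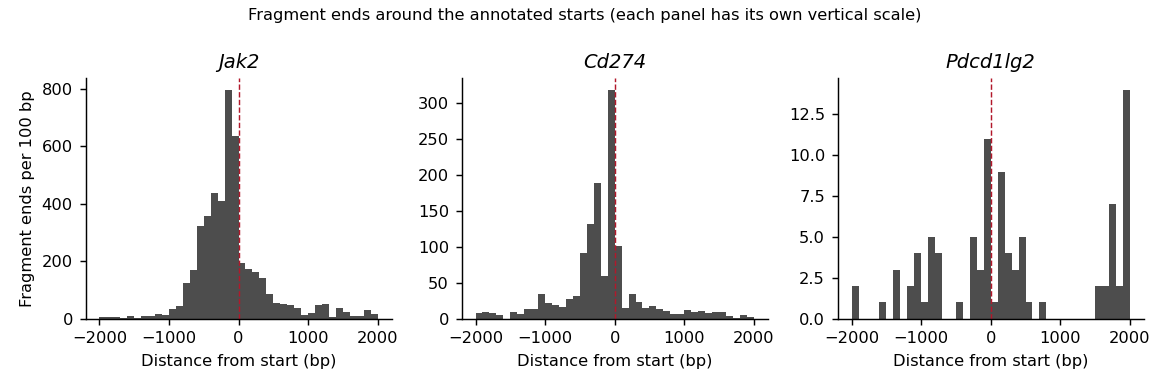
Fragment ends per 100 bp (vertical axis, a separate scale in each panel) against distance from the GENCODE start (horizontal axis, bp; dashed line, the start) in all kept cells. Jak2 peaked at 797 ends and Cd274 at 318 ends, while no bin at Pdcd1lg2 passed 14.

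The Jak2 ends spread over about 1 kb, with the most (797) between 200 and 101 bp before the start. Cd274 had its peak of 318 ends in the 100 bp before the start and a smaller peak of 189 ends between 300 and 201 bp before it, with 60 ends between them. Plgrkt, which encodes a plasminogen receptor, has its annotated 5' end 65 bp from the Cd274 start on the opposite strand. Fragments there therefore cannot be assigned to either gene.

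An open window was defined as holding at least 5 times the genome-wide mean of 10.4 fragments per window, that is 52.2 fragments, and adjacent open windows were joined to a site. The stretch held 60 open windows, or 9.38% of its windows, against 3.04% in the genome. They formed 24 sites, numbered here along the chromosome, which took up 71.9% of its 11440 fragments. Of these sites 5 lay at a transcript start, 6 overlapped an exon elsewhere, 11 lay in introns and 2 between genes. Site 24, at the edge, was cut there because it runs on beyond the stretch.

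**Figure D2:**
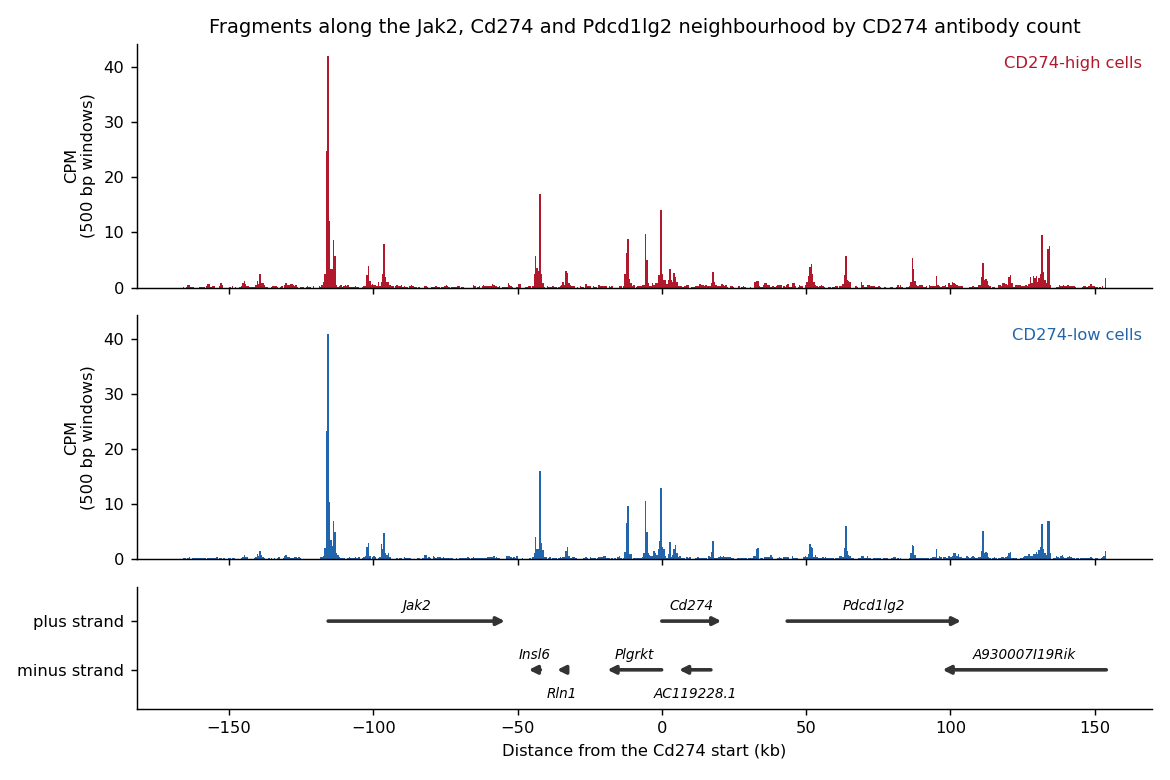
Fragments per 1000000 nuclear fragments (CPM) in 500 bp windows (vertical axis) against distance from the Cd274 start (horizontal axis, kb) in CD274-high (red) and CD274-low (blue) cells, with the annotated genes and their direction below (A930007I19Rik is drawn up to the edge). The highest window in both gates is at the Jak2 start, and the peaks of the 2 gates stand at the same places.

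The 5 sites with most fragments lay at or near starts, apart from site 7 in an intron of Plgrkt. Site 2 (chr19:29250501-29254500), at the Jak2 start and its first untranslated exon, held 2590 fragments, with a highest window of 149 times the mean, and 47.0% of cells (45.3% to 48.6%) had a fragment there. Site 5 (chr19:29323001-29326000), at the start of Insl6, an insulin-like hormone gene best known from the testis, held 900 fragments in 21.0% of cells. Site 9 (chr19:29366001-29368000), at the Cd274 start, held 616 fragments in 14.9% of cells (13.7% to 16.1%), with a highest window of 50.5 times the mean. Site 7 (chr19:29354501-29356000) held 477 and site 8 (chr19:29361501-29362500), at another annotated start of Plgrkt, held 456.

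The share of fragments under 120 bp, a length shorter than the DNA around a nucleosome, also varied among the sites. It was 37.0% (35.1% to 38.9%) at the Jak2 start and 42.1% (37.5% to 46.8%) at the Plgrkt start of site 8, against 35.3% over all open sites of the genome. At the Cd274 start it was 22.7% (19.5% to 26.2%), below the interval of both. Other sites were as low, with 24.3% (20.5% to 28.4%) at site 7 and 11.8% at the start of Rln1 (site 6), while the Insl6 start was at 38.0%.

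Inside Cd274 there were 3 further sites. Site 10 lay in an intron and held 116 fragments, site 11 overlapped an exon and held 160, and site 12 overlapped an exon towards the 3' end and held 124. Each of them was seen in 3.03% to 4.05% of cells. Jak2 likewise had site 3 in an intron (173 fragments) and site 4 overlapping a coding exon (305 fragments).

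Pdcd1lg2, with a closed start where no window passed 1.44 times the mean, had 4 open sites inside the gene. Site 14 (chr19:29418001-29420000) held 262 fragments, site 15 (chr19:29430501-29431500) held 255, site 16 (chr19:29454001-29455000) held 232 and site 17 held 74. Site 16 overlapped an exon and the others lay in introns. Another 7 sites lay within A930007I19Rik, a transcript of the opposite strand that starts beyond the far edge, with the most fragments at site 22 (chr19:29498001-29500500; 442 fragments) and site 23 (355 fragments). Whether any of these sites acts on Pdcd1lg2 or another gene was not tested.

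Between the gates the 3 genes had ratios from 0.10 to 0.24 on the log2 scale. Counted over the gene and 2 kb upstream, Jak2 had 1024 fragments in CD274-high and 866 in CD274-low cells, or 98.9 and 92.5 CPM (fragments per 1000000 nuclear fragments of the same cells), a log2 ratio of 0.10 (interval -0.03 to 0.23). Cd274, which encodes the antigen that set the gates, had 362 and 296 fragments, or 35.0 and 31.6 CPM, a log2 ratio of 0.15 (-0.08 to 0.37). Pdcd1lg2 had 434 and 332 fragments, or 41.9 and 35.5 CPM, a log2 ratio of 0.24 (0.03 to 0.45). None of the 3 genes passed a log2 ratio of 0.32 in size, the threshold used here to call a difference, and 6.42% of the 16168 protein-coding genes with at least 100 fragments did so in either direction. With fragments under 120 bp alone, Cd274 (0.38, -0.12 to 0.89) and Pdcd1lg2 (0.34, -0.13 to 0.81) did pass it, with wide intervals, and Jak2 gave 0.01. The share of 6.42% is for fragments of all lengths, so it is no background for those values. Cd274 was lower, at 0.04, both with cells thinned to 6000 fragments and between cells above and at or below the median CD274 count. The median over the 16168 genes was -0.0046, and Jak2, Cd274 and Pdcd1lg2 stood at percentiles 77.1, 85.8 and 94.4 of the ratio.

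Marker genes were also compared between the same gates. The study defined HSCs by flow cytometry as positive for Sca-1, c-Kit and CD150 and negative for CD48, CD34 and a lineage cocktail. That cocktail held antibodies to B, T, myeloid and erythroid antigens, with Mac-1 and Gr-1 among them. The purity of the sorted cells was not measured here. Of the 10 HSC markers, Ly6a, which encodes the sorting marker Sca-1, passed the threshold upwards, with 83 and 55 fragments and a log2 ratio of 0.45 (-0.06 to 0.97), and none passed it downwards, where 6.42% of all protein-coding genes passed in either direction. Kit gave -0.22 (-0.33 to -0.11) and Meis1 -0.09 (-0.17 to -0.0087), while Mecom gave 0.12 (0.06 to 0.18) and Hlf 0.15 (0.04 to 0.26). The intervals of the remaining HSC markers held 0. Of 8 markers of macrophages and dendritic cells, 4 had enough fragments, with a median log2 ratio of 0.20. Csf1r, the receptor of the macrophage growth factor CSF1, had 592 and 410 fragments, a log2 ratio of 0.39 (0.20 to 0.57), and passed the threshold, although its start held only 7 and 2 fragments. Mrc1 gave 0.28 (0.05 to 0.50), Mertk 0.12 (-0.04 to 0.28) and Cd68 -0.17 (-0.52 to 0.19). The other 4 held 14 to 88 fragments over both gates, under the minimum for the threshold. On these few, Adgre1 gave -0.76 (-1.57 to 0.01) and the complement gene C1qa -0.64 (-1.46 to 0.15). The dendritic integrin Itgax gave 0.05 (-0.58 to 0.69) and Siglech 1.57 (-0.19 to 4.21). Among the other lists the median was 0.05 for HSC, 0.05 for neutrophil, 0.0056 for B cell, 0.19 for T cell and -0.13 for erythroid markers, each over the 2 to 10 genes with enough fragments. Among these, Epor of the erythroid markers, the erythropoietin receptor, passed the threshold downwards at -0.69 (-0.98 to -0.41), and no other did apart from Ly6a. The part of other cell types in the ratios of the 3 genes was not tested.

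At the starts alone the ratios were smaller. The log2 ratio was 0.04 (-0.13 to 0.21) for Jak2, from 613 and 538 fragments, and 0.09 (-0.24 to 0.43) for Cd274, from 166 and 141 fragments. Pdcd1lg2 held only 11 and 9 fragments at its start, and a difference was not detectable at this depth (-1.26 to 1.59). The upper bound for the Cd274 start leaves room for a difference past that threshold. The mean CD274 count was 37.3 tags in CD274-high and 9.09 in CD274-low cells, a difference that the gate rule itself sets.

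Read from the other side, cells with a fragment over Cd274 (1012 cells) had a mean of 21.5 CD274 tags (21.2 to 21.8) and cells without (2617 cells) 21.2 (21.0 to 21.4). For Pdcd1lg2 the means were 22.0 (21.8 to 22.3) in 1125 cells with and 20.9 (20.8 to 21.1) in 2504 cells without a fragment, and for Jak2 21.6 in 2094 and 20.9 in 1535 cells. These intervals cover the counting of tags only. They leave out the spread between cells, whose counts ran from 2 to 110, so they do not show that the means differ. Cells with a fragment were also deeper, with medians of 11051 against 9990.5 nuclear fragments for Pdcd1lg2, and the part of depth in these differences was not tested.

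The 6 bins of CD274 count gave no steady order for the genes. Jak2 ran from 80.0 CPM (65.8 to 96.5) in the 125 cells with up to 6 tags to 107 (96.2 to 119) in the 280 cells with 40 or more, with 94.6, 88.0, 93.2 and 95.1 in the bins between. Cd274 had 24.0 CPM (16.5 to 33.7) in the lowest bin, 32.9, 34.9, 33.3 and 37.5 in the next 4 and 29.8 (24.2 to 36.2) in the highest. Its start alone had 10 fragments in the lowest bin, or 7.28 CPM (3.49 to 13.4), against 14.2 to 16.6 in the other bins. Cells with fewer than 10 tags had been dropped, so the lowest bin held only cells that also carried other tags. Pdcd1lg2 had its highest value, 48.0 CPM (37.1 to 61.1), in the lowest bin, its lowest, 33.3 (29.4 to 37.5), in the bin of 7 to 12 tags, and 38.9 to 42.9 in the others.

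**Figure D3:**
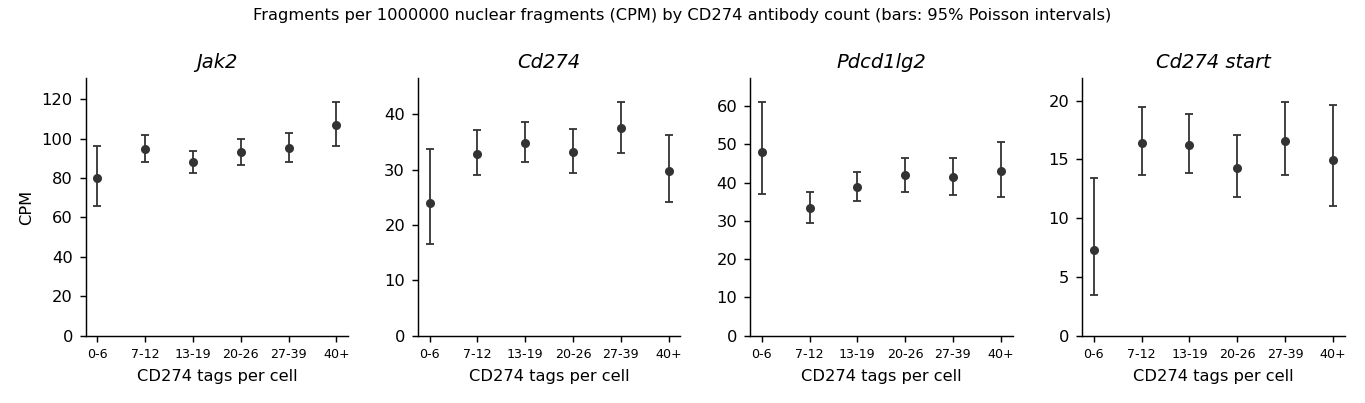
Fragments per 1000000 nuclear fragments (CPM) (vertical axis, from 0) in 6 bins of CD274 tags per cell (horizontal axis) over Jak2, Cd274 and Pdcd1lg2 with 2 kb upstream, and over 2 kb around the Cd274 start. Points are the pooled cells of a bin and bars 95% Poisson intervals; apart from the 125 cells of the lowest bin, the Cd274 start stayed between 14.2 and 16.6 CPM.

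The fragments of all 24 open sites together were 229 CPM in CD274-high and 205 in CD274-low cells, a log2 ratio of 0.16 (0.07 to 0.25), while all open sites of the genome together gave 0.05. In bins of rising CD274 count the 24 sites held 186 (163 to 210), 209, 207, 218, 224 and 241 (224 to 258) CPM. The first 2 and last 2 of these bins are the cells of the gates, so the bins restate the ratio in part. The 2 gates also differed in the share of all fragments that lay in open sites, 72.2% against 69.8%, and scaling by those fragments lowered the ratio of the 24 sites to 0.11 (0.02 to 0.20). With 12 of the 24 sites holding at least 100 fragments over both gates, 4 passed the threshold upwards, being higher in CD274-high cells, and none passed it downwards. Among the 29857 open sites of the genome with that many fragments, 19.2% passed it in either direction and 13.8% did so upwards. The upward share in the genome depended on depth, at 22.3% for sites with fewer than 200 fragments over both gates and 7.85% for deeper ones, against 3 of 6 and 1 of 6 of the 12 sites. Besides the 3 highest sites, described next, the fourth to pass was site 4 at a coding exon of Jak2, named here after its value was seen. It held 99 and 70 fragments, a log2 ratio of 0.35 (-0.10 to 0.82). Between all cells above and all at or below the median CD274 count its ratio was 0.03 (-0.30 to 0.36). The median log2 ratio was 0.10 over the 12 sites and 0.05 over the genome.

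**Figure D4:**
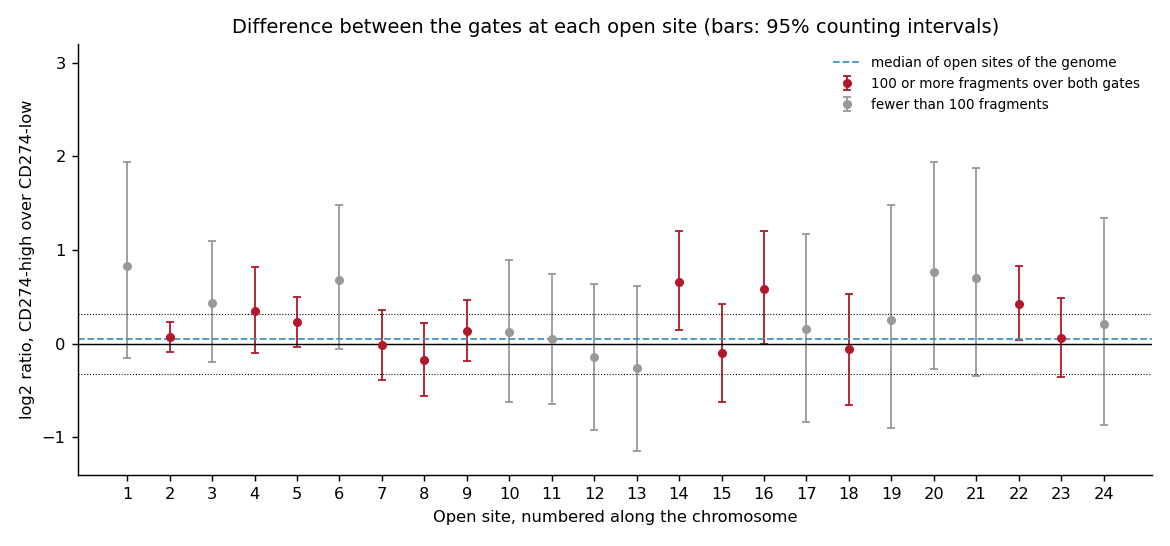
Log2 ratio of CD274-high over CD274-low cells (vertical axis) at each of the 24 open sites (horizontal axis), with 95% counting intervals; red points have at least 100 fragments over both gates, grey points fewer, dotted lines mark the threshold of 0.32 in either direction and the dashed line the genome median of 0.05. Sites 14, 16 and 22 are the highest of the red points, and the Jak2 start (site 2) and Cd274 start (site 9) lie at 0.07 and 0.14.

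The 3 highest sites lay downstream of the closed Pdcd1lg2 start, but so did sites 15, 18 and 23, at -0.10, -0.06 and 0.06. Site 14, in an intron of Pdcd1lg2, held 86 fragments in CD274-high and 49 in CD274-low cells, or 8.31 CPM (6.65 to 10.3) and 5.23 (3.87 to 6.92), a log2 ratio of 0.66 (0.14 to 1.20), at percentile 98.3 of the genome's sites. That percentile was not matched for depth, and sites with few fragments pass the threshold more often. Site 16 held 65 and 39 fragments, a log2 ratio of 0.59 (-0.0019 to 1.20), and site 22, within A930007I19Rik, held 137 and 92, a log2 ratio of 0.43 (0.04 to 0.83). The gates had overlapping intervals for the level at each of these sites. Since they are the highest of 12, their ratios are given as a description. The interval of the ratio lay clear of 0 at 2 of the 12 sites and at 13.1% of the 29857 open sites of the genome. With each cell thinned to 6000 fragments, site 14 dropped to 0.36 (-0.31 to 1.06), site 16 was at 0.82 and site 22 at 0.42, and each interval held 0. Between all cells above and all at or below the median CD274 count, site 14 gave 0.56, site 16 0.319 and site 22 0.29, of which the last 2 were under the threshold.

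Over the bins of CD274 count, site 14 held 4.37, 5.38, 5.78, 7.96, 7.86 and 9.24 CPM, site 16 held 6.55, 3.75, 6.45, 7.24, 5.86 and 7.15, and site 22 held 10.9, 9.64, 10.8, 11.9, 12.7 and 14.3. The first 2 and last 2 bins are the cells of the gates by which these sites were picked, so no order is read from them. The lowest and highest bins of site 14 rested on 6 and 31 fragments, and their intervals (1.60 to 9.50 and 6.28 to 13.1) overlapped.

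The lowest of the 12 sites were site 8, at a Plgrkt start, with a log2 ratio of -0.17 (-0.56 to 0.22), site 15 with -0.10 (-0.62 to 0.42) and site 18 with -0.06 (-0.65 to 0.53). Site 15 lies in Pdcd1lg2 between sites 14 and 16 and is shown with them for that reason. The 200 bp with the most fragment ends in each are printed below in the same way (chr19:29418901-29419100, chr19:29431051-29431250, chr19:29454301-29454500 and chr19:29499151-29499350, plus strand).
Site 14: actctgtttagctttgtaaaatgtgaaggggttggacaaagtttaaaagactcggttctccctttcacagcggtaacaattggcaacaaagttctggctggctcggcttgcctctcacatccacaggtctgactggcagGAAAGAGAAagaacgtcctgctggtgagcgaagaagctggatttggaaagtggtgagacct
Site 15: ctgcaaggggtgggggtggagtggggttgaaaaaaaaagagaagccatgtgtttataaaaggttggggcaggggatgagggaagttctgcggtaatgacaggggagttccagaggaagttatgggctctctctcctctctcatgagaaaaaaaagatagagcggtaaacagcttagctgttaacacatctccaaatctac
Site 16: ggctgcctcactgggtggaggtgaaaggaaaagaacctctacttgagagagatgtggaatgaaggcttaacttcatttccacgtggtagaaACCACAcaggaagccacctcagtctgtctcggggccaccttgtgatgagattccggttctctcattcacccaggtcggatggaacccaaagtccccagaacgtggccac
Site 22: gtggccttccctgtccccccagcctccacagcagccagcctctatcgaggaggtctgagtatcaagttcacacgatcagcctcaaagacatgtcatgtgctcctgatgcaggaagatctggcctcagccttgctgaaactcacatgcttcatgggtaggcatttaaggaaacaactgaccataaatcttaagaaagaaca

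Site 14 held 1 IRF match, present in 8.02% of such stretches over 64082 open sites, and site 16 held 1 RUNX match, present in 20.1%. Sites 15 and 22 matched none of the 7 motifs.

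Of the other neighbours, Rln1, a relaxin hormone gene, had 66 fragments in CD274-high and 36 in CD274-low cells, a log2 ratio of 0.72 (0.12 to 1.36) at percentile 99.9 of genes, on few fragments. Insl6 gave 0.20 (-0.06 to 0.47) and Plgrkt -0.02 (-0.21 to 0.17). Ric1, of which only the region upstream of its start reaches into the stretch, gave -0.19 (-0.36 to -0.03), from 610 and 631 fragments.

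Gates on other antibodies were compared in the same way. In 779 cells with 6 or more tags of CD61 (integrin beta 3, of platelets and megakaryocytes), Cd274 had 277 fragments or 31.8 CPM, against 303 or 40.1 in 727 cells with at most 1, a log2 ratio of -0.34 (-0.58 to -0.10), and its start gave -0.47 (-0.83 to -0.11). Cd274 alone of the 3 genes passed the threshold there, as did 5.32% of 15860 protein-coding genes in either direction. The Cd274 start held 121 of the 277 and 145 of the 303 fragments, which cannot be assigned to Cd274 or Plgrkt. Plgrkt itself was not compared between these cells. Jak2 gave 0.04 (-0.10 to 0.19) and Pdcd1lg2 -0.03 (-0.25 to 0.20) between the same cells. Between high and low counts of CD357 and of CD27, both surface receptors of the TNF receptor family, the 3 genes lay between -0.15 and 0.14, and each interval held 0. In the gate of the study's platelet-biased type (CD61 and CD274 above, CD357 and CD27 at or below their medians; 342 cells) against the opposite gate (61 cells), the ratios were 0.17 (-0.24 to 0.62) for Jak2, -0.08 (-0.69 to 0.63) for Cd274 and -0.07 (-0.64 to 0.60) for Pdcd1lg2.

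Among 36 pairs of the 9 most covered or start sites, the number of cells with a fragment at both, over the number expected from each cell's depth, had a median of 1.01 and ran from 0.672 to 1.42. The starts of Jak2 and Cd274 were both seen in 266 cells against 269 expected (ratio 0.987, 0.872 to 1.11). Sites 22 and 23, which lie next to each other, were both seen in 50 cells against 36.9 (1.35, 1.01 to 1.79), sites 4 and 22 in 44 against 30.9 (1.42, 1.03 to 1.91), and sites 7 and 23 in 28 against 41.7 (0.672, 0.446 to 0.971). These were the 3 pairs whose interval left out 1, among 36 looked at without correction. A single fragment with an end in each of sites 22 and 23 counts at both, and such fragments were not set apart.

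Other genes of both pathways were taken from lists. All 33 genes of a JAK-STAT list had enough fragments, none passed the threshold upwards and 1 passed it downwards, with a median log2 ratio of 0.04, against 6.42% past it in either direction and a median of -0.0046 over all protein-coding genes. That gene was again Epor, with 171 and 250 fragments. The next lowest were the kinase Jak3 (-0.17) and the transcription factor Stat3 (-0.11). The highest were Csf3r, the receptor of G-CSF (0.30), and Socs3 (0.23) and Socs2 (0.18), feedback inhibitors of the pathway. The 3 other kinases of the family besides Jak3 gave 0.10 (Jak1), 0.10 (Jak2) and -0.03 (Tyk2). Of 20 genes of immune checkpoints, 18 had enough fragments, 1 passed it upwards and none downwards, again near the 6.42% of all genes, with a median of 0.05. The highest were Ctla4, an inhibitory receptor (0.39, from 147 and 101 fragments), and the co-stimulatory receptor gene Cd28 (0.24) beside Pdcd1lg2. The lowest were Tnfrsf14 (-0.18), Lgals9 (-0.12) and Pdcd1, which encodes PD-1 (-0.09). Cmtm6, which is known to keep PD-L1 at the surface, gave -0.04.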

How the data were processed

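One pool of LT-HSCs was read as ATAC, gene expression and antibody tags, and the gene expression matrix was not analysed here. Per the file headers and the submitters' processing notes, the authors used Cell Ranger ARC 2.0.2 with mm10, which called cells, merged duplicates and corrected fragment ends for the offset of Tn5. Deposited were unnormalized counts, namely fragments by barcode and antibody tag counts, for which the authors ran CITE-seq-Count (version not given in the sources used here).

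Kept cells held 10 or more tags. A fragment was counted once in each 500 bp window that held an end, and genes (GENCODE M21) by overlap with the gene and 2 kb upstream. Log2 ratios used counts plus 0.5, scaled by nuclear fragments, with exact conditional binomial intervals. Other intervals were exact Poisson or binomial intervals. Expected shared cells came from each cell's depth and each site's rate. The functions were tested on simulated data. The members and lists were chosen with earlier results of these data known. Named were all protein-coding neighbours, sites at member starts, the 5 with most fragments, and the 3 highest and 3 lowest sites and list genes, given 100 fragments in the pair of gates. Excess overlaps were 1 kb windows with 3 or more overlapping fragments, against a Poisson expectation shared by all cells. Scripts ran in Python 3.11.15 (pysam 0.24.0, pandas 2.3.3, scipy 1.17.1, numpy 2.4.6).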

Additional observations from a re-analysis of the deposited data

How the results depend on the processing

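The ratios of Jak2, Cd274 and Pdcd1lg2 were above 0 under all 13 alternatives computed, and ran from 0.01 to 0.15, from 0.04 to 0.38 and from 0.13 to 0.34. Those of Jak2 and Pdcd1lg2 stayed within their main intervals, and Cd274 left its own with fragments under 120 bp (0.38, interval -0.12 to 0.89), where Pdcd1lg2 (0.34) passed the threshold too. The alternatives reuse many of the same cells and fragments, so their common sign is no independent support. The Cd274 interval held 0 under each of them. That of Pdcd1lg2 also held 0 with thinned cells (-0.04 to 0.54) and at the start alone (-1.26 to 1.59). The 24 sites together ran from 0.09 to 0.21 over 12 alternatives, and the interval reached below 0 with fragments under 120 bp (0.09, -0.06 to 0.25). Without cells of excess overlaps the 3 genes gave 0.10, 0.15 and 0.26. Scaling by fragments in open sites, chosen after seeing the data, gave 0.05, 0.10 and 0.19 (-0.02 to 0.40). Thinning each cell to 6000 fragments lowered site 14 from 0.66 to 0.36 (-0.31 to 1.06) and Cd274 to 0.04. Gates with at least 50 tags gave no ratio, since 0 CD274-low cells held as many. Between 16 and 28 open sites were found under the 7 alternatives. The share of open sites of the genome past the threshold was 36.0% with no minimum of fragments, 10.3% with at least 200 and 3.83% at 1.5-fold. No paired analysis was possible because each assay had 1 sample. With 1 pool, differences between animals could not be measured, and depth limits every site with few fragments.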
